A study of Mus musculus with 93 samples.

Results

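The mouse Hox genes are 39 homeobox genes that lie in 4 clusters, Hoxa with 11 genes, Hoxb with 10, Hoxc with 9 and Hoxd with 9. They were taken by symbol (Hox, the cluster letter and the paralog number from 1 to 13), and all 39 were found among the 33924 gene names of each count table. RNA-seq had been done in R1 mouse embryonic stem cells grown in serum with leukaemia inhibitory factor, in 4 groups of 3 libraries. Set 1 holds cells with the I53A point mutation of Ring1b and wild type (WT) cells. Ring1b is the subunit with which Polycomb repressive complex 1 ubiquitinates histone H2A, and this mutation is known to impair that activity. Set 2 holds cells labelled H1b/c/d/e-QKO, a label that names a knockout of those linker histone genes, and a WT group of its own. The labels give no clone, passage or drug for any of the 4 groups.

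Hox proteins are transcription factors that assign position along the body axis. Within a cluster, genes with a low paralog number are expressed earlier and further toward the head, and genes with a high number later and further toward the tail. In embryonic stem cells the clusters are known as targets of Polycomb repression, with little transcription.

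Libraries held between 12585621 and 23378930 counts. The labels do not name separate cultures for the replicates. The p-values below thus reflect how much these 3 libraries per group vary, and that variation may be technical. Rnf2, the gene of Ring1b, had 1771, 1702 and 1086 counts in the I53A libraries and 3427, 3380 and 2324 in the WT libraries. This is 93.1 ± 6.57 CPM (counts scaled to library size) in I53A cells and 186 ± 7.71 CPM in WT cells (SD, n = 3 each). The Rnf2 transcript was thus lower in I53A cells, with a log2 fold change of -0.998 ± 0.0777 (SE, edgeR adjusted p = 5.63e-05). Its part in the Hox result was not tested. The level of a transcript does not show a point mutation in it, so this level does not check the label. In set 2 no linker histone gene that the label names was called lower in the libraries labelled QKO, and Hist1h1b was higher. Hist1h1b (H1b) had 62, 53 and 72 counts in the libraries labelled QKO and 4, 9 and 2 in the WT libraries. Hist1h1c (H1c) had 174, 129 and 202 counts in the libraries labelled QKO and 143, 173 and 205 in the WT libraries, with groups that overlap. Hist1h1d and Hist1h1e had at most 15 counts in any library of set 2. Counts per gene do not show whether an encoded protein is made, and these libraries are therefore called by their label throughout. Of the 11 annotated embryonic stem cell markers of a list of 12, 5 fell and 0 rose in I53A cells by the test described below. In libraries labelled QKO 8 rose and 3 fell. Over all genes tested, 18.1% rose and 17.4% fell in I53A cells, and 28.7% rose and 29.0% fell in libraries labelled QKO. All 11 markers were detected in every group. Their summed level was 5298 to 5716 CPM (counts scaled to library size) in I53A libraries and 6607 to 7094 CPM in WT libraries of set 1, and 6839.8 to 6993 CPM in libraries labelled QKO and 5752 to 5917 CPM in WT libraries of set 2.

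Promoter sequence was at hand for 22 of the 39 genes, as 24 windows of 250 bases before a RefSeq transcription start (build GRCm38.p6, which is not the mm9 build of the counts). The windows held a median of 12.5 CG dinucleotides, the sites of DNA methylation and a known feature of Polycomb-bound promoters, against a median of 6 over 32851 promoters of all genes. At least 1 CG was in 100% of the Hox windows and in 92.1% of all. The motif CCAAT, searched on both strands, was in 14 of the 24 windows (58.3%) and in 33.8% of all promoters. A match describes these letters and is not a binding site. Below are 1 promoter of each cluster whose gene rose in I53A cells, and that of Hoxb8, which had 0 counts in all I53A and all WT libraries of both sets. CG dinucleotides are in capitals, and each strand is read 5′ to 3′ toward the start site. They are Hoxa7 at chr6:52218574-52218823 on the minus strand, and on the plus strand Hoxb4 at chr11:96318017-96318266, Hoxb8 at chr11:96281655-96281904, Hoxc4 at chr15:103034145-103034394 and Hoxd13 at chr2:74667975-74668224.
Hoxa7: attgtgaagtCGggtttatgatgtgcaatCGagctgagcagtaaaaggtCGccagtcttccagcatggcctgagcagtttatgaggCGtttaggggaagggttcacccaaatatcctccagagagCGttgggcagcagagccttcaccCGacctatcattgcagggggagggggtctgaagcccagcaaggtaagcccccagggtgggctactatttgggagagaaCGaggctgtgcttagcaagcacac
Hoxb4: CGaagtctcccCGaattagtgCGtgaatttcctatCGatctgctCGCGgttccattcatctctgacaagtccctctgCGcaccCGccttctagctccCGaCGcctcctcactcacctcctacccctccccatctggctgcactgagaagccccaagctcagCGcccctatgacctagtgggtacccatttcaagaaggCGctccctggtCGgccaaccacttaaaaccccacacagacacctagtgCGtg
Hoxb8: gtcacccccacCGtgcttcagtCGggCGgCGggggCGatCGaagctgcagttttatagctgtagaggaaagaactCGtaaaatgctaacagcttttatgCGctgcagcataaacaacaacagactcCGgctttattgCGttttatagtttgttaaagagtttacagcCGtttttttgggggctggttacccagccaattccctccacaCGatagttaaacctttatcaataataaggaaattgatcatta
Hoxc4: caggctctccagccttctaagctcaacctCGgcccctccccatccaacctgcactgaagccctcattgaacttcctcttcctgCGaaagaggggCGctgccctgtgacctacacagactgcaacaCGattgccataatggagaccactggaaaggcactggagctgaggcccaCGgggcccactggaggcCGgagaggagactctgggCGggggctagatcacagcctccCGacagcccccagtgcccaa
Hoxd13: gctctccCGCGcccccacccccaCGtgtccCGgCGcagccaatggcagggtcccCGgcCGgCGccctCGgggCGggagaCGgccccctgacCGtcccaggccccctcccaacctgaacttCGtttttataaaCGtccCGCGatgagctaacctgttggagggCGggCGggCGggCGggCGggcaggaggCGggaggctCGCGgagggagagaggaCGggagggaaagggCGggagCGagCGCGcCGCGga
The number of CG differed among them, from 7 in Hoxa7 and 8 in Hoxc4 to 12 in Hoxb8, 14 in Hoxb4 and 31 in Hoxd13. Hoxb8, with no reads in I53A cells, lay within the range of the 4 genes that rose, which describes only the promoters shown. As 40.4% of the exon bases of Hoxb8 overlap another gene, some of its reads can be lost.

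Hox transcripts were more abundant in I53A cells, in all 4 clusters. All members together had 1290, 1218 and 931 counts in the I53A libraries and 330, 363 and 250 in the WT libraries. Relative to library size this was 71.1 ± 2.5 CPM in I53A cells and 19.3 ± 0.88 CPM in WT cells (SD, n = 3 each), a ratio of 3.69. Between 35 and 36 of the 39 genes had at least 1 count in each I53A library, and 23 or 24 in each WT library. In bulk RNA, fewer cells with a transcript and less of it per cell cannot be told apart.

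Of the 39 genes, 32 were higher by CPM in every I53A library than in every WT library and 0 were lower in every one. Among the 32, Hoxa6 and Hoxd4 had groups that touch in counts, at 3 and 1, but not in CPM. Over all 24663 genes with a count in set 1, 18.6% lay above WT by CPM in every library and 16.7% below. The Hox genes outside the 32 were Hoxb2, Hoxb3, Hoxb5, Hoxb6, Hoxb8, Hoxb9 and Hoxd12, all but 1 of them in Hoxb. A filter on low counts left 20 members for the test across all genes (edgeR's quasi-likelihood test with Benjamini-Hochberg adjustment, threshold 0.05), of which 18 rose and 0 fell. Over the 15536 genes tested, 18.1% rose and 17.4% fell. Members that passed the filter through their I53A counts alone were selected for a higher I53A level, so the count of 18 is a description. With no filter, 23 of the 38 members with a count rose, adding Hoxa9, Hoxa11, Hoxc5, Hoxd9 and Hoxd10, where 11.1% of all genes rose. With the replicate number as a block 18 members rose as well, while 28.1% of all genes rose and 28.5% fell. Among replicates 1 and 2 alone 19 rose. Replicate 3 is a single library per group and gives no value of its own.

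**Figure D1:**
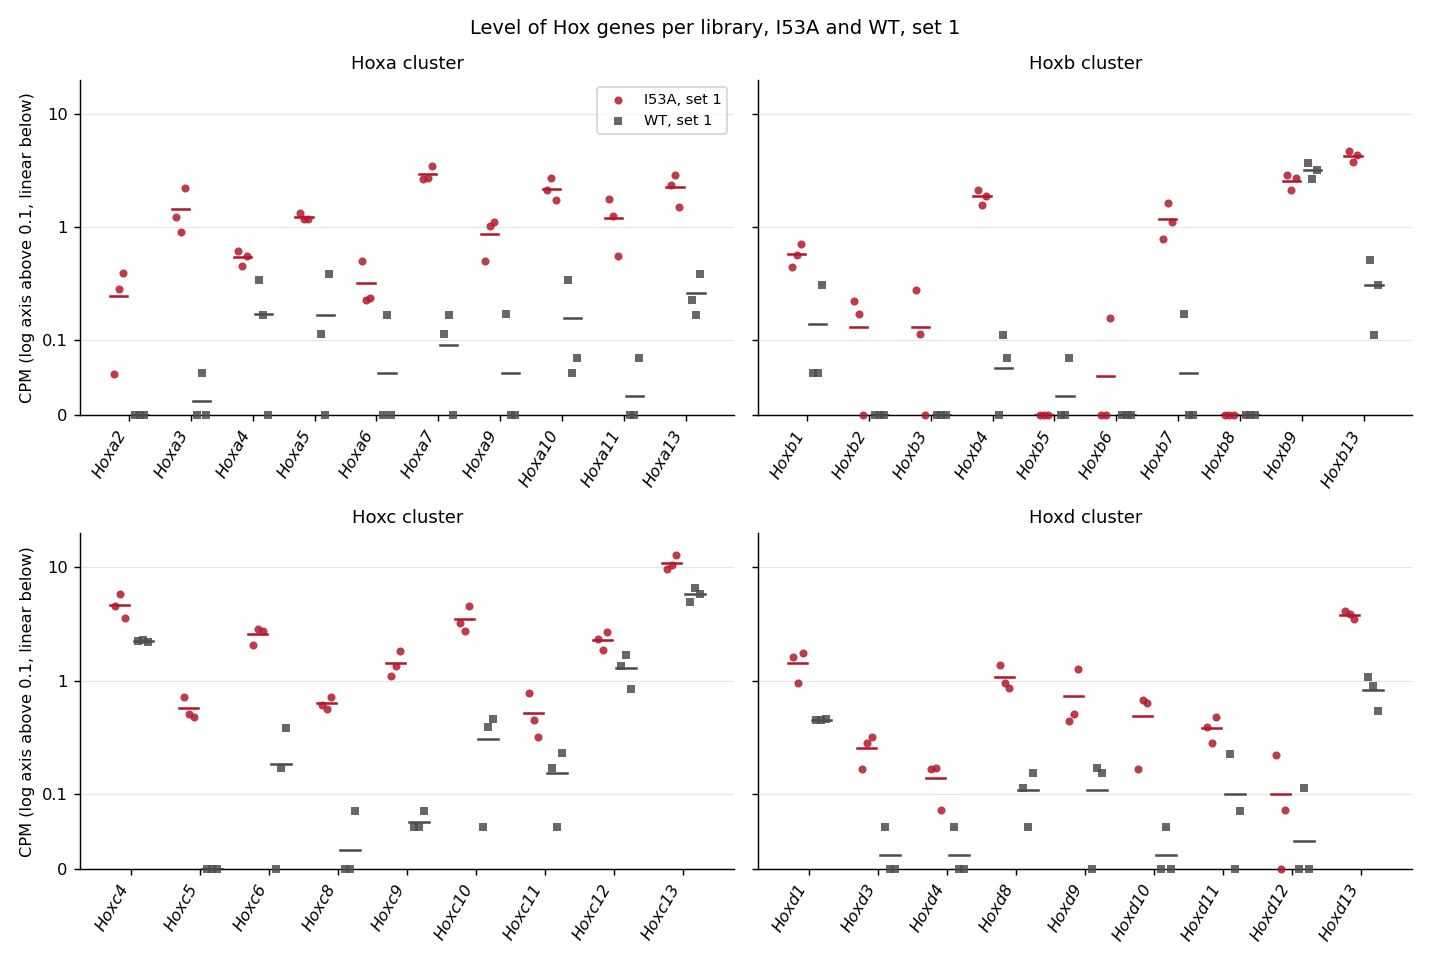
Level of each of 38 of the 39 Hox genes in CPM, on an axis that is logarithmic above 0.1 and linear below, for the 3 I53A libraries (circles) and the 3 WT libraries (squares) of set 1, with lines at group means and genes in paralog order. The I53A libraries lie above the WT libraries for 31 of these 38 genes, and Hoxb5 and Hoxb8 are at 0 in I53A cells.

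The Hoxa cluster lies on the minus strand of chromosome 6 (chr6:52105366-52210874, mm9). All 11 of its genes were above WT in every I53A library, and the 6 that could be tested all rose. Of these 6, Hoxa3, Hoxa5, Hoxa7, Hoxa10 and Hoxa13 passed the filter through their I53A counts alone. Hoxa7, a gene of trunk identity, had 48, 48 and 44 counts in I53A libraries and 2, 3 and 0 in WT libraries. Its log2 fold change was 4.75 ± 0.52 (SE, edgeR adjusted p = 0.000309), and 5.35 without WT replicate 2. Every I53A count of Hoxa7 exceeded every WT count.

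Hoxa3, needed for thymus and parathyroid formation, had 22, 16 and 28 counts in I53A libraries and 0, 1 and 0 in WT libraries. Its ratio of summed counts, scaled for library size, was 66.4 (exact 95% interval 11.5 to 2663, counting error only; edgeR adjusted p = 0.00137), and the single WT count lies in replicate 2. Hoxa5, a gene of the neck and lung, had 24, 21 and 15 counts in I53A libraries and 2, 0 and 5 in WT libraries. The log2 fold change of Hoxa5 was 3.01 ± 0.70 (edgeR adjusted p = 0.0111). It was 2.36 without WT replicate 2 and 4.29 without WT replicate 3, and it missed the threshold without I53A replicate 1 (adjusted p = 0.0522) or WT replicate 1 (adjusted p = 0.0579). Toward the posterior end, Hoxa10, required in the uterus, had 38, 48 and 22 counts in I53A libraries and 6, 1 and 1 in WT libraries. The change was, on the log2 scale, 3.69 ± 0.54 (edgeR adjusted p = 0.00134), and 4.92 without WT replicate 1. Hoxa13, which shapes the hand and foot and the genital tubercle, had 42, 51 and 19 counts in I53A libraries and 4, 3 and 5 in WT libraries, a log2 fold change of 3.14 ± 0.44 (edgeR adjusted p = 0.00108).

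The other 5 Hoxa genes were too low for the filtered test and were given by their counts. Hoxa11, a gene of the forearm and lower leg, summed to 61 counts in I53A libraries and 1 in WT libraries, a ratio of 61.4 (interval 10.6 to 2465). Hoxa9, known for its part in blood stem cells, summed to 41 counts in I53A libraries and 3 in WT libraries, a ratio of 13.8 (interval 4.39 to 69.4). Both were called in the fit with no filter, with edgeR adjusted p-values of 0.000335 and 0.00645. Hoxa4 had 26 counts in I53A libraries and 9 in WT libraries, and Hoxa6 had 16 in I53A libraries and 3 in WT libraries. Hoxa2 had 1, 5 and 5 counts in I53A libraries and 0 in all WT libraries, which is at least 3.69-fold higher against a floor of 3 counts over the WT group. Part of the exon bases of Hoxa2 (11%), Hoxa3 (28.0%), Hoxa7 (20.4%) and Hoxa11 (38.6%) is shared with another annotated gene, and reads there can be lost to both.

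Hoxb, on chromosome 11 (chr11:96055630-96229570, mm9), held genes that rose, genes that stayed near 0, and Hoxb9, which had reads in both groups and was not called. Just 4 of its 10 genes, Hoxb1, Hoxb4, Hoxb7 and Hoxb13, were above WT in every I53A library. Hoxb13, a gene of the tail end and the prostate, had 85, 67 and 55 counts in I53A libraries and 9, 2 and 4 in WT libraries. This is 4.27 ± 0.474 CPM in I53A cells and 0.307 ± 0.197 CPM in WT cells (SD, n = 3 each), a log2 fold change of 3.76 ± 0.40 (edgeR adjusted p = 0.000291) that was 4.39 without WT replicate 1. Hoxb4, a regulator of blood stem cells, had 38, 28 and 24 counts in I53A libraries and 0, 2 and 1 in WT libraries, a ratio of 30.2 (interval 10.0 to 149; edgeR adjusted p = 0.000562). Hoxb7 had 14, 29 and 14 counts in I53A libraries and 3, 0 and 0 in WT libraries, a ratio of 19.1 (interval 6.22 to 95.5; edgeR adjusted p = 0.00555). Hoxb1, a hindbrain gene too low for the filtered test, had 8, 10 and 9 counts in I53A libraries and 1, 1 and 4 in WT libraries.

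Between these genes lay members with almost no reads. Hoxb2 and Hoxb3 had 7 counts each in I53A libraries and 0 in WT libraries, at least 2.35-fold higher for each against the floor. Hoxb5 had 0 counts in I53A libraries and 1 in WT libraries, Hoxb6 had 2 in I53A libraries and 0 in WT libraries, and Hoxb8 had 0 in both. A count of this size allows no fold, and a difference of a few reads was not detectable at this depth. The share of exon bases that overlap another gene was 49.4% for Hoxb2, 37.9% for Hoxb3 and 40.4% for Hoxb8, but 3.6% for Hoxb5 and 0% for Hoxb6. Hoxb9, a thoracic gene, was the member with most reads in the cluster in WT cells. It had 52, 38 and 34 counts in I53A libraries and 66, 48 and 42 in WT libraries, and the groups overlap. Its log2 fold change was -0.32 ± 0.23 (edgeR adjusted p = 0.330), and its ratio of summed counts was 0.80 (interval 0.627 to 1.02).

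All 9 genes of Hoxc, on chromosome 15 (chr15:102751534-102867274, mm9), were above WT in every I53A library, and 6 of the 7 that could be tested rose. Of these 6, Hoxc6, Hoxc8, Hoxc9 and Hoxc10 passed the filter through their I53A counts alone. Hoxc13, known for hair and nail growth, had 174, 186 and 162 counts in I53A libraries and 88, 119 and 77 in WT libraries. This is 11 ± 1.63 CPM in I53A cells and 5.82 ± 0.851 CPM in WT cells (SD, n = 3 each), a log2 fold change of 0.91 ± 0.18 (edgeR adjusted p = 0.00497). Its neighbour Hoxc12 had 42, 33 and 34 counts in I53A libraries and 24, 30 and 11 in WT libraries. The groups do not overlap, yet the log2 fold change of 0.80 ± 0.32 did not pass the test (edgeR adjusted p = 0.0875). Hoxc4, at the anterior end, had 82, 103 and 45 counts in I53A libraries and 40, 41 and 29 in WT libraries, a log2 fold change of 1.05 ± 0.23 (edgeR adjusted p = 0.00953).

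The middle of Hoxc changed by larger folds from a lower level. Hoxc10, a gene of lumbar identity, had 58, 49 and 58 counts in I53A libraries and 1, 7 and 6 in WT libraries, a log2 fold change of 3.55 ± 0.51 (edgeR adjusted p = 0.00115). Hoxc6, a thoracic gene, had 37, 51 and 35 counts in I53A libraries and 0, 3 and 5 in WT libraries. The change was, on the log2 scale, 3.87 ± 0.63 (edgeR adjusted p = 0.00206), 3.24 without WT replicate 1 and 4.80 without WT replicate 3. Hoxc8, which sets thoracic vertebral identity, had 11, 10 and 9 counts in I53A libraries and a single count in WT replicate 3, a ratio of 30.2 (interval 5.02 to 1232; edgeR adjusted p = 0.00455). Hoxc5 had 13, 9 and 6 counts in I53A libraries and 0 in all WT libraries, at least 9.39-fold higher against the floor. Hoxc9 had 20, 24 and 23 counts in I53A libraries and 1 in each WT library (edgeR adjusted p = 0.000508). Hoxc11, too low for the filtered test, had 14, 8 and 4 counts in I53A libraries and 3, 1 and 3 in WT libraries.

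In Hoxd, on chromosome 2 (chr2:74506367-74603200, mm9), 8 of 9 genes were above WT in every I53A library, and the 3 that could be tested all rose. Of these 3, Hoxd1 and Hoxd8 passed the filter through their I53A counts alone. Hoxd13, which patterns the digits, had 74, 69 and 44 counts in I53A libraries and 19, 16 and 7 in WT libraries. This is 3.82 ± 0.318 CPM in I53A cells and 0.831 ± 0.271 CPM in WT cells (SD, n = 3 each), a log2 fold change of 2.16 ± 0.29 (edgeR adjusted p = 0.000812). Hoxd8 had 25, 17 and 11 counts in I53A libraries and 2, 1 and 2 in WT libraries, a log2 fold change of 3.30 ± 0.53 (edgeR adjusted p = 0.00201). Hoxd1, at the anterior end, had 29, 17 and 22 counts in I53A libraries and 8, 8 and 6 in WT libraries. Its log2 fold change was 1.64 ± 0.38 (edgeR adjusted p = 0.0117), with an adjusted p of 0.0548 without I53A replicate 1.

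The remaining Hoxd genes summed to between 5 and 33 counts in I53A libraries and between 1 and 5 in WT libraries. Hoxd9 had 8, 9 and 16 counts in I53A libraries and 0, 3 and 2 in WT libraries, and Hoxd10, a gene of lumbar motor neurons and the hindlimb, had 3, 12 and 8 in I53A libraries and 0, 1 and 0 in WT libraries. Both were called in the fit with no filter (edgeR adjusted p = 0.0333 for Hoxd9 and 0.0213 for Hoxd10). Hoxd3, Hoxd4 and Hoxd11 were above WT in every library but were not called in that fit either. Hoxd4 shares 67.4% of its exon bases with another gene and had 3, 3 and 1 counts in I53A libraries and 1, 0 and 0 in WT libraries. Hoxd12 was the exception of the cluster, with 4, 0 and 1 counts in I53A libraries and 0, 2 and 0 in WT libraries.

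Summed over each cluster, the CPM of Hoxa was 24.9 ± 1.34 in I53A cells and 3.73 ± 0.507 in WT cells, a ratio of 6.67. Hoxd had 8.42 ± 0.636 CPM in I53A cells and 1.69 ± 0.297 in WT cells, a ratio of 4.98. Hoxb had 10.7 ± 0.738 CPM in I53A cells and 3.79 ± 0.755 in WT cells, a ratio of 2.84. Hoxc had the highest sum and the lowest ratio, with 27.1 ± 2.38 CPM in I53A cells and 10.1 ± 1.23 in WT cells, a ratio of 2.69 (SD, n = 3 for each sum). The order of these ratios rested on single members. Hoxb9 made up 84.4% of the Hoxb sum in WT cells, and the log2 ratio of I53A to WT in Hoxb was 1.5 with it and 3.79 without it. For Hoxc the log2 ratio was 1.43, and 1.92 without Hoxc13.

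**Figure D2:**
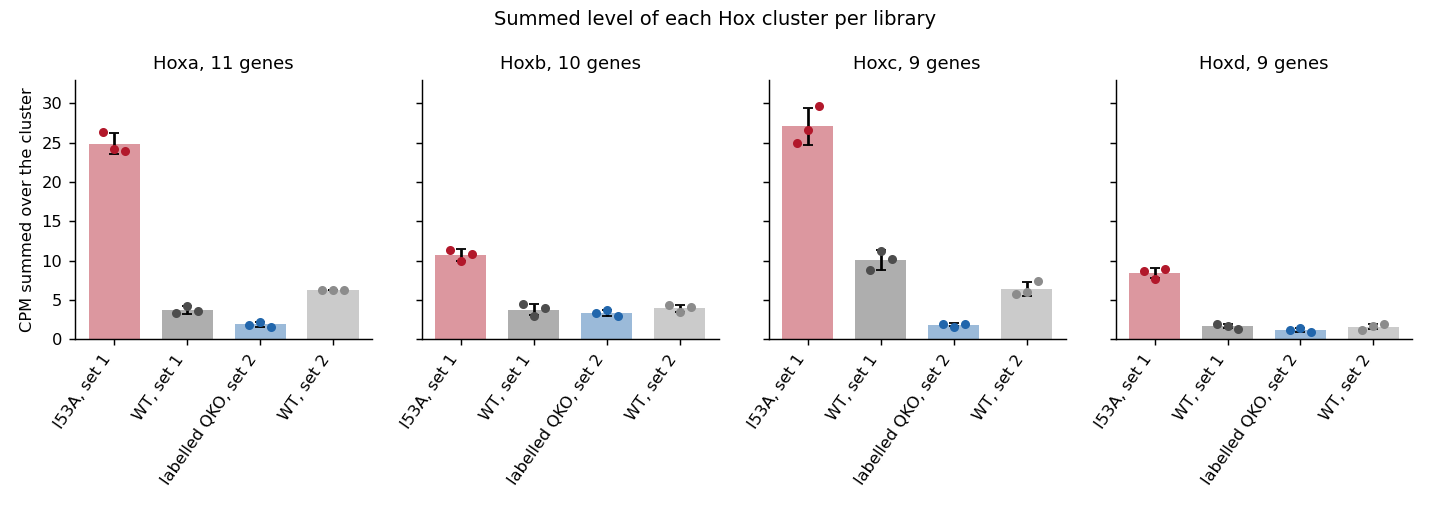
CPM summed over the genes of each Hox cluster, with bars for group means, error bars for the SD over 3 libraries and points for libraries. I53A libraries are above their WT libraries in all 4 clusters, with Hoxa at 24.9 against 3.73 CPM, and libraries labelled QKO are below theirs in Hoxa and Hoxc.

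By position, the 8 genes of paralog numbers 1 to 3 had 15.9 ± 1.75 CPM in I53A cells and 3.36 ± 0.748 in WT cells, a ratio of 4.73. The 15 genes of numbers 4 to 8 had 17.7 ± 0.813 CPM in I53A cells and 3.21 ± 0.131 in WT cells, a ratio of 5.52. For the 16 genes of numbers 9 to 13, the sums were 37.5 ± 2.17 CPM in I53A cells and 12.7 ± 0.385 in WT cells, a ratio of 2.95 (SD, n = 3 for each sum). In WT cells Hoxc13 (5.82 CPM) and Hoxb9 (3.20 CPM) held most of the sum of numbers 9 to 13. Hoxc4 (2.25 CPM) held most of that of numbers 4 to 8. The ratios by position thus reflect few members and do not describe whole groups of paralogs. Over the 20 tested genes, the Spearman correlation of log2 fold change with paralog number was -0.22, and with the WT level it was -0.91. The WT level is itself part of the fold change, so this is a description. Per kilobase of exon, Hoxc13 was at 4.45 CPM per kb in I53A cells and led in WT cells of set 1 at 2.36 CPM per kb.

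**Figure D3:**
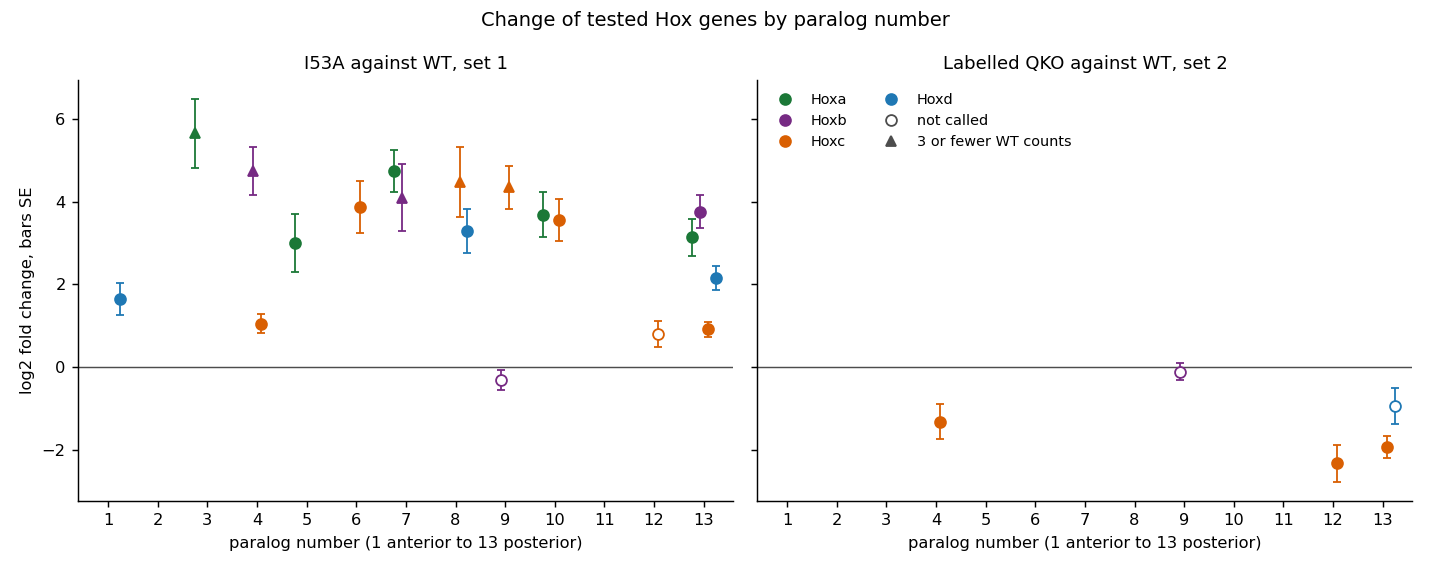
Log2 fold change of tested Hox genes with SE against paralog number, I53A against WT (left, 19 of the 20 genes) and labelled QKO against WT (right, 5 of the 6 genes), with open symbols for genes not called. Triangles mark genes with 3 or fewer counts over the WT group, whose fitted fold is uncertain. All called genes drawn lie above 0 on the left and below 0 on the right.

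Set 2 showed fewer Hox reads in the libraries labelled QKO. All members together had 193, 146 and 159 counts in the libraries labelled QKO and 305, 317 and 423 in WT libraries. This is 8.25 ± 0.815 CPM in libraries labelled QKO and 18.2 ± 1.18 CPM in WT libraries (SD, n = 3 each), a ratio of 0.452. Of the 39 genes, 7 were lower in every library labelled QKO than in every WT library and 1 was higher in every one. Over the 24261 genes with a count in set 2, 20.5% lay below and 24.8% above in this way, so a share of 7 in 39 is near the background. The filtered test held 6 members, of which 4 fell and 0 rose, where 29.0% of all 15439 genes tested fell and 28.7% rose. With no filter 6 members fell, adding Hoxa7 and Hoxb13, and 0 rose, where 19.0% of all genes fell and 20.1% rose. The 6 tested members held 78.5% of Hox counts in libraries labelled QKO and 81.9% in WT libraries.

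Hoxc13 had 18, 15 and 25 counts in libraries labelled QKO and 62, 58 and 90 in WT libraries, a log2 fold change of -1.94 ± 0.26 (edgeR adjusted p = 5.12e-09). Hoxc12 had 9, 2 and 4 counts in libraries labelled QKO and 17, 24 and 31 in WT libraries. The change was, on the log2 scale, -2.33 ± 0.44 (edgeR adjusted p = 1.17e-05), and -2.92 without QKO replicate 1. Hoxc4 had 14, 3 and 8 counts in libraries labelled QKO and 14, 17 and 28 in WT libraries, with groups that touch at 14 counts but not in CPM. The change of Hoxc4, -1.33 ± 0.42 (edgeR adjusted p = 0.00604), missed the threshold without WT replicate 3 (adjusted p = 0.0591).

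Hoxd13 had 6, 16 and 8 counts in libraries labelled QKO and 12, 13 and 31 in WT libraries, and the groups overlap. Its log2 fold change of -0.94 ± 0.44 did not pass the test (edgeR adjusted p = 0.0617). Without QKO replicate 2 it was -1.61 and passed (adjusted p = 0.00680), and without WT replicate 1 it passed as well (adjusted p = 0.0417). Hoxa7 had 1, 0 and 0 counts in libraries labelled QKO and 7, 1 and 8 in WT libraries, a ratio of 0.0585 (interval 0.00139 to 0.376). Hoxb13 had 2, 1 and 2 counts in libraries labelled QKO and 14, 1 and 10 in WT libraries, with overlap. Hoxa3 and Hoxc11 were also below WT in every library labelled QKO, with 3 and 5 counts over the libraries labelled QKO, against 10 and 12 over the WT libraries, and neither was called with no filter.

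Hoxb8 was the member above WT in every library labelled QKO, with 3, 2 and 2 counts in those libraries and 0 in the other 9 libraries. This is at least 2.18-fold higher against the floor of 3 counts over the WT group, and it was not called with no filter (edgeR adjusted p = 0.0618). Between these extremes, 5 genes (Hoxb2, Hoxb3, Hoxd3, Hoxd4 and Hoxd12) had no read in either group of set 2. By cluster, the summed CPM of Hoxa was 1.89 ± 0.346 in libraries labelled QKO and 6.27 ± 0.0562 in WT libraries, a ratio of 0.301. Hoxc had 1.83 ± 0.191 CPM in libraries labelled QKO and 6.39 ± 0.853 in WT libraries, a ratio of 0.287. The sums of Hoxb were 3.33 ± 0.369 CPM in libraries labelled QKO and 3.96 ± 0.45 in WT libraries, and those of Hoxd were 1.19 ± 0.28 CPM in libraries labelled QKO and 1.62 ± 0.371 in WT libraries (SD, n = 3 for each sum). In both of these clusters the groups overlap. The log2 ratio of the Hoxb sums was -0.25, and -1.07 without Hoxb9.

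**Figure D4:**
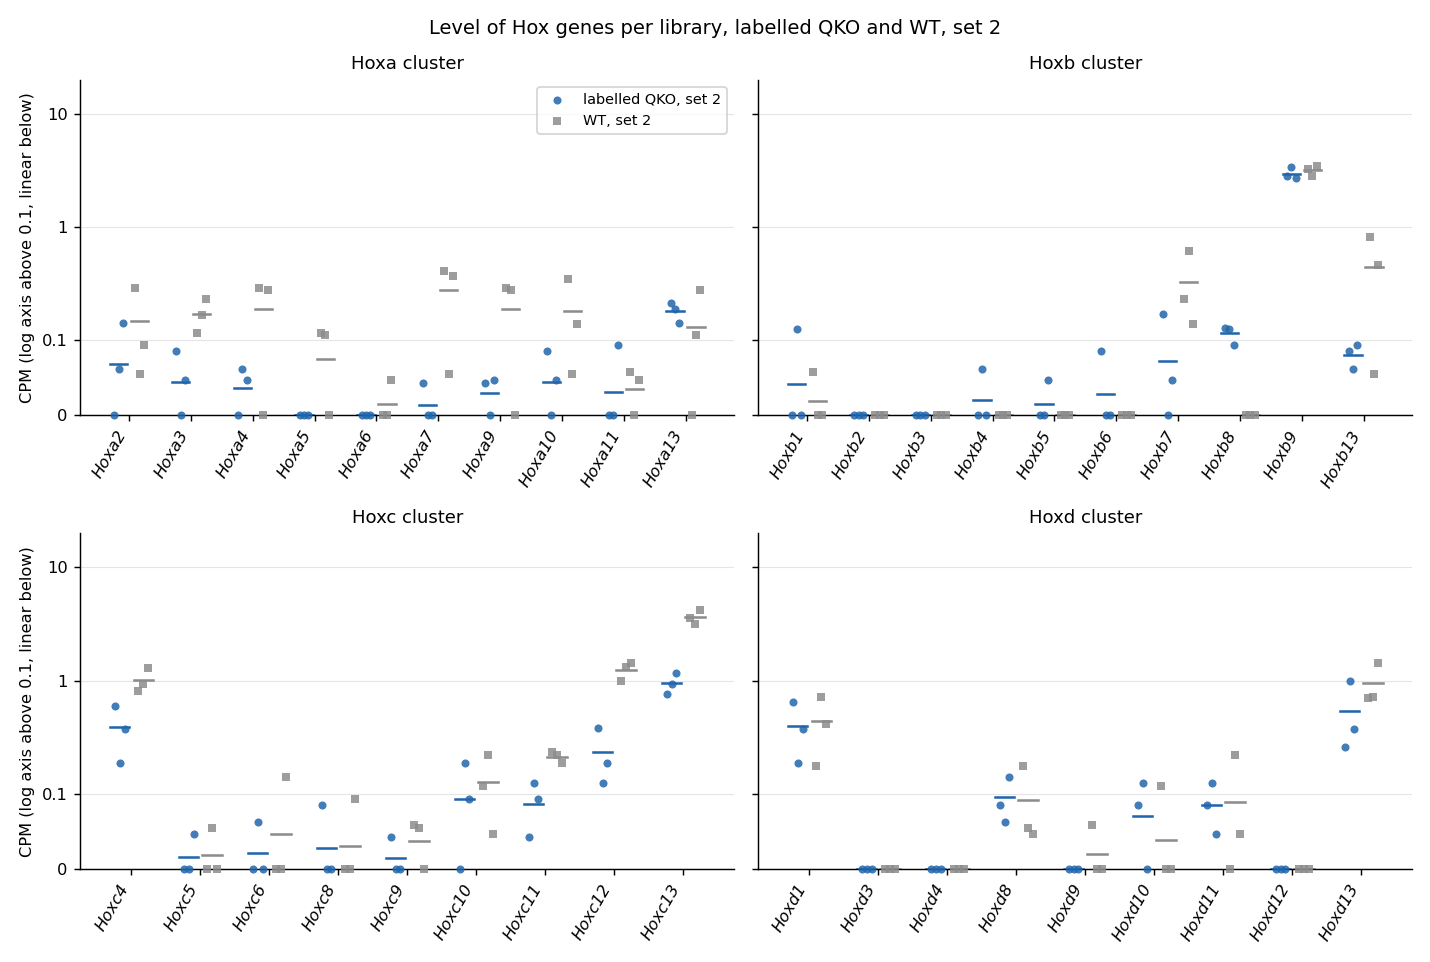
Level of each of 38 of the 39 Hox genes in CPM, on an axis that is logarithmic above 0.1 and linear below, for the 3 libraries labelled QKO (circles) and the 3 WT libraries (squares) of set 2, with lines at group means and genes in paralog order. Hoxc4, Hoxc12 and Hoxc13 lie lower in the libraries labelled QKO, Hoxb9 lies at the same height within its spread, and most other genes are within a few reads of 0.

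The effects of both mutants on each member were compared with an interaction test over all 12 libraries, as the I53A effect less that of the libraries labelled QKO. Of the 20 members tested, 15 had a higher effect in I53A cells and 0 a lower one, where 18.0% of all 16501 genes tested were higher and 18.1% lower. Just 6 members passed the filter in both sets, and members that entered through their I53A counts alone were selected for a higher I53A level. The count of 15 is thus a description. Hoxc4 and Hoxc13 passed the test in both comparisons, higher in I53A cells and lower in libraries labelled QKO. For Hoxc13 the difference was 2.86 ± 0.28 on the log2 scale (edgeR adjusted p = 2.69e-06). In 6 of the 15 (Hoxa3, Hoxa5, Hoxa7, Hoxa10, Hoxb7 and Hoxc9) some group had 3 counts or fewer, and no difference of folds is given for them. The difference was not called for Hoxb4, Hoxb9, Hoxc6, Hoxc8 and Hoxd1. With a replicate block it was lost for Hoxd8 (adjusted p = 0.0519, against 0.0314 with no block) and gained for Hoxc6 (adjusted p = 0.0322, against 0.0528).

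Hoxb9 passed the test in neither comparison. Its level was 2.57 ± 0.385 CPM in I53A cells and 3.20 ± 0.513 CPM in WT cells of set 1, and 2.96 ± 0.344 CPM in libraries labelled QKO and 3.18 ± 0.339 CPM in WT libraries of set 2 (SD, n = 3 each). In set 2 its log2 fold change was -0.12 ± 0.20 (edgeR adjusted p = 0.650), and its ratio of summed counts was 0.915 (interval 0.740 to 1.13). The group means of Hoxc13 lay between 0.956 CPM in libraries labelled QKO and 11 CPM in I53A cells. CPM in both sets were scaled within each set, and alignments of the sets carry different names in the file headers, so levels across the sets are given side by side without a test.

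Genes around the clusters were examined next. For each cluster the 3 nearest genes on each side with a settled name were taken, 24 in all, of which 22 were tested, 3 rose and 4 fell, where 18.1% of all genes tested rose and 17.4% fell. Evx1, a homeobox gene 52.6 kb beyond the Hoxa13 end of Hoxa, had 25, 34 and 12 counts in I53A libraries and 4, 3 and 3 in WT libraries, a log2 fold change of 2.76 ± 0.46 (edgeR adjusted p = 0.00235). Its relative Evx2, 8.4 kb from Hoxd, had 0 counts in all libraries of set 1. Ttll6, a tubulin-modifying enzyme gene 28.9 kb from the Hoxb13 end of Hoxb, had 114, 108 and 49 counts in I53A libraries and 479, 524 and 311 in WT libraries. Its log2 fold change was -2.28 ± 0.19 (edgeR adjusted p = 7.56e-05), opposite to Hoxb13. The other 5 flanking genes that passed (Calcoco1, Mtx2, Hibadh, Cbx5 and Hnrnpa3) changed by between -0.46 and 0.37. All of them except Hibadh missed the threshold without some single library, with adjusted p-values between 0.0505 for Mtx2 and 0.137 for Hnrnpa3. The call of Hnrnpa3 was also lost with library totals (adjusted p = 0.0502) and with no filter (adjusted p = 0.0691).

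Within the spans of the clusters lay 28 other annotated genes, of which 18 had a read. Of the 4 tested in each set, 1 rose and 1 fell in I53A cells, and 0 rose and 3 fell in libraries labelled QKO. Over all genes tested, 18.1% rose and 17.4% fell in I53A cells, and 28.7% rose and 29.0% fell in libraries labelled QKO. Gm53, between Hoxb13 and Hoxb9, had 15.1 ± 2.63 CPM in I53A cells and 20.8 ± 0.664 CPM in WT cells (SD, n = 3 each). Its log2 fold change of -0.45 ± 0.14 (edgeR adjusted p = 0.0357) missed the threshold without I53A replicate 1 (adjusted p = 0.0874), I53A replicate 3 (0.0590), WT replicate 1 (0.112) or WT replicate 2 (0.0767). Gm53 fell in set 2 as well, by -0.67 ± 0.08 (edgeR adjusted p = 4.80e-11). Gm11539 and Mir196a-1, also beside Hoxb9, did not pass in I53A cells. The change of Mir196a-1 in set 2 was -0.55 ± 0.24 (edgeR adjusted p = 0.0465). This call was lost with library totals (adjusted p = 0.0578), no filter (0.0607), a filter of 1 CPM in 3 libraries (0.0512) and DESeq2 (0.0987). The block (0.0509) and leaving out each of 4 libraries, 1 at a time, lost it as well. In set 2, 21 of the 24 flanking genes were tested, 6 rose and 13 fell, where 28.7% of all genes tested rose and 29.0% fell. Of those that rose, Lnp (0.15 ± 0.07, edgeR adjusted p = 0.0415) missed the threshold with no filter (0.0945) and with DESeq2 (0.0605). It did so too without each of 5 libraries, 1 at a time.

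**Figure D5:**
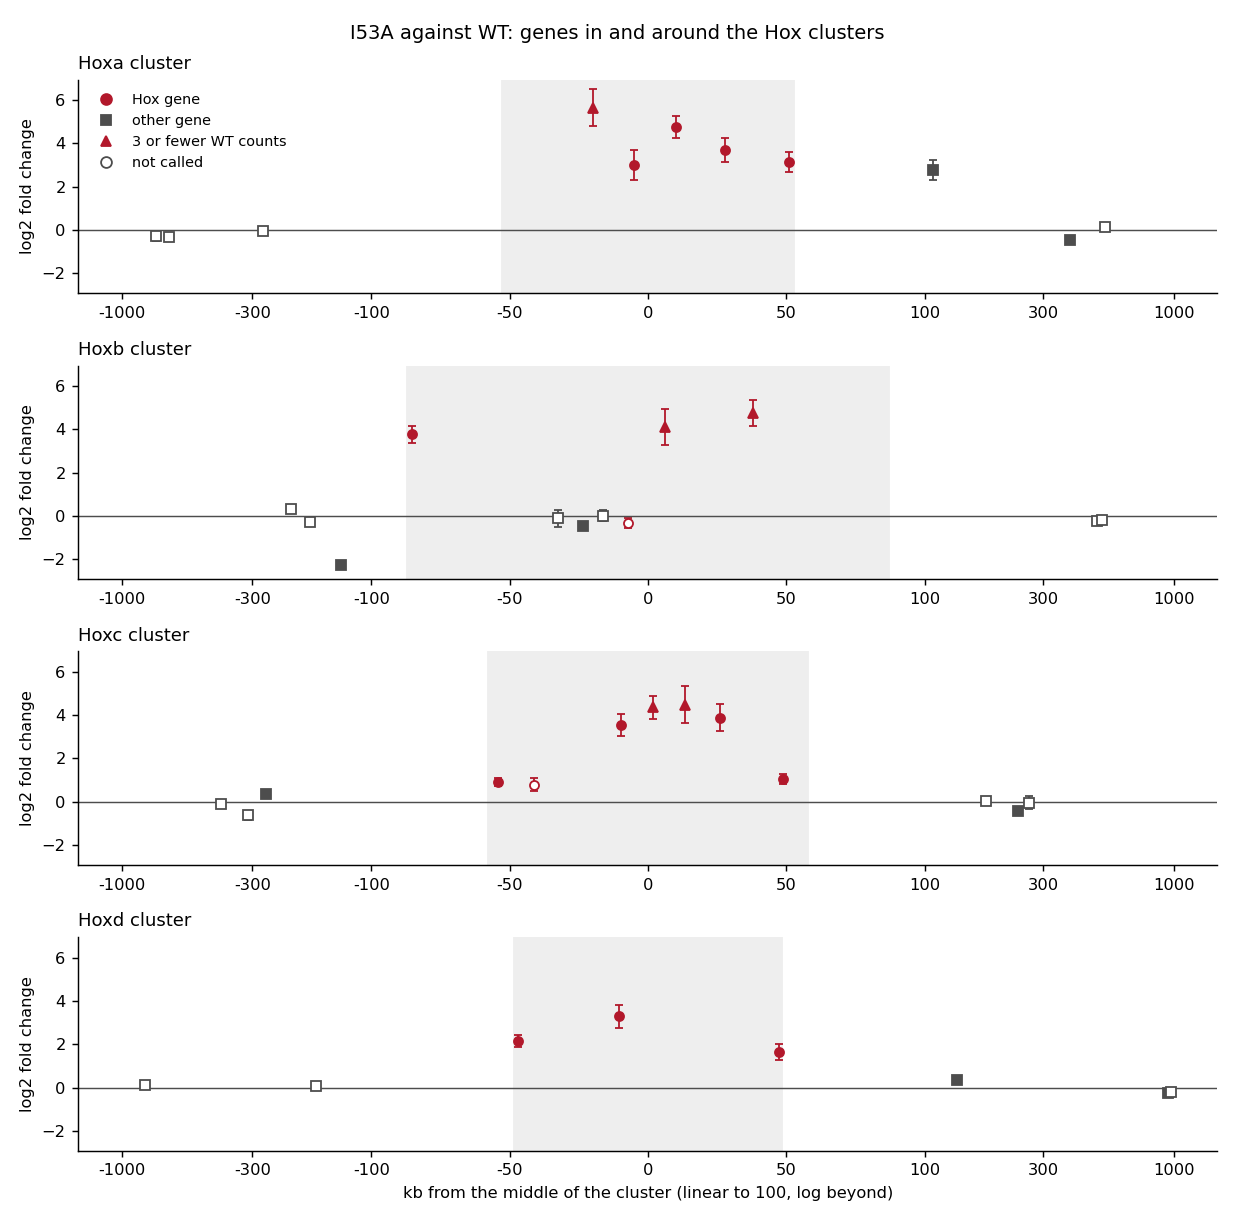
Log2 fold change with its SE, I53A against WT, of 19 tested Hox genes (circles, or triangles where the WT group has 3 or fewer counts) and of other tested genes (squares) in and around each cluster, against distance from the middle of the cluster. Grey marks the cluster, and open symbols were not called. Evx1 at 2.76 and Ttll6 at -2.28 are the flanking genes with the largest changes.

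For reading the lists that follow, 18.1% of all genes tested rose and 17.4% fell in I53A cells, and 28.7% rose and 29.0% fell in libraries labelled QKO. Among 9 genes of the Hox cofactors, the Pbx, Meis and Pknox proteins that bind DNA with Hox proteins, 3 rose and 4 fell in I53A cells, with a median log2 fold change of 0.01. Meis1 had 113, 80 and 86 counts in I53A libraries and 29, 17 and 17 in WT libraries (2.17 ± 0.28, edgeR adjusted p = 0.000666). Pknox2 had 26, 18 and 19 counts in I53A libraries and 89, 101 and 64 in WT libraries (-1.98 ± 0.23, edgeR adjusted p = 0.000437). In libraries labelled QKO Pknox2 rose, with 50, 33 and 43 counts against 4, 10 and 12 in WT libraries (2.17 ± 0.35, edgeR adjusted p = 5.52e-07). There 2 of 8 tested cofactors rose and 2 fell, the largest decrease being that of Pbx4 (-0.65 ± 0.13, edgeR adjusted p = 4.32e-05).

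Known regulators of Hox genes, a list of 16 with the Cdx factors, retinoic acid receptors and the enzymes that make and clear retinoic acid, were also counted. In I53A cells 6 of 11 tested rose and 0 fell, with a median of 0.71. In set 2, 4 of 8 tested rose and 1 fell, with a median of 0.62. Aldh1a2, which makes retinoic acid, had 79, 52 and 55 counts in libraries labelled QKO and 17, 10 and 10 in WT libraries (2.22 ± 0.30, edgeR adjusted p = 7.06e-09). Rara, a retinoic acid receptor, fell by 0.58 ± 0.06 on the log2 scale (edgeR adjusted p = 1.60e-11). It was the only tested regulator that fell in set 2, and the other retinoic acid receptors of the list rose. Of 8 homeobox genes related to Hox (Gsx, Pdx, Evx, Mnx and Meox), 4 were tested in I53A cells and all 4 rose, and 0 were tested in set 2. Gsx1 had 13, 11 and 13 counts in I53A libraries and 0, 0 and 1 in WT libraries, a ratio of 37.2 (interval 6.28 to 1510.3; edgeR adjusted p = 0.00321).

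Markers of other cell types moved with the same contrasts, and their part in the Hox result was not tested. All 12 primitive endoderm markers rose in I53A cells, with a median of 4.78 and a summed level of 2317 to 2387 CPM in I53A libraries and 129 to 143 CPM in WT libraries. Mesoderm and posterior markers summed to 42.8 to 50.2 CPM in I53A libraries and 15.8 to 19.0 CPM in WT libraries, where 5 of 7 tested rose and Osr1 was at 0 in both groups. Trophoblast markers summed to 109 to 121 CPM in I53A libraries and 35.4 to 37.1 CPM in WT libraries, where 4 of 6 tested rose. Of 10 annotated neural markers, 3 of 5 tested rose and 1 fell, with sums of 131 to 148 CPM in I53A libraries and 104 to 125 CPM in WT libraries. Fibroblasts express Hox genes and can be present as feeder cells. Of 21 fibroblast markers, 10 of 13 tested rose and 0 fell, with a median log2 fold change of 1.19. Their sums were 182 to 206 CPM in I53A libraries and 135 to 186 CPM in WT libraries. The only markers of this list at 0 in a group were Lum in I53A cells, and Postn, Dcn, Prrx1 and Fap in WT cells. In I53A cells these 4 had 2, 3, 2 and 1 counts over the group.

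In set 2 the sums of some lists were higher and those of others lower in the libraries labelled QKO. Fibroblast markers summed to 301.4 to 308.5 CPM in libraries labelled QKO and 167 to 174 CPM in WT libraries, with 6 of 10 tested higher and 1 lower. Lum and Dcn were at 0 in the libraries labelled QKO. Of the 21 markers, 9 were at 0 over the WT libraries, Lum and Dcn among them. Primitive endoderm markers summed to 146 to 154 CPM in libraries labelled QKO and 115 to 133 CPM in WT libraries, with 6 of 10 tested higher and 0 lower. Mesoderm and posterior markers, which include genes of the tail end of the embryo, summed to 11.4 to 13.7 CPM in libraries labelled QKO and 21.2 to 22.8 CPM in WT libraries, with 3 of 5 tested lower. Trophoblast markers summed to 24.7 to 27.1 CPM in libraries labelled QKO and 44.5 to 52.7 CPM in WT libraries, with 1 of 4 tested higher and 2 lower. Neural markers summed to 186 CPM in each library labelled QKO and 99.4 to 107 CPM in WT libraries, with 3 of 4 tested higher and 1 lower. Their part in the lower Hox sum was not tested.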

How the data were processed

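RNA-seq counts were analysed for 12 libraries of the 93 samples of the series, and the chromatin assays were not analysed here. The authors deposited raw counts, 1 table per library. TRIzol extraction and Illumina TruSeq libraries are given per the labels' protocols, while how RNA was selected is not given in these sources. Per the file headers, featureCounts version 1.6.3 counted paired fragments per gene name against GENCODE for NCBIM37 (mm9), with no option set for strand, several alignments or several genes. Fragments over bases that genes share can therefore be lost, and antisense pairs cannot be told apart. HISAT2, Bowtie2, SAMtools, featureCounts and DESeq2 are named without version in the submitters' processing notes, beside the builds dm6 and mm9. In set 1, but not in set 2, the counted alignments have TopHat and unique in their names, per the file headers.

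Counts were tested with edgeR's quasi-likelihood test (edgeR version 4.0.16, R version 4.3.3, TMM, filterByExpr defaults, robust fit, two-sided) across all genes, with Benjamini-Hochberg adjustment and a threshold of 0.05. Each genotype comparison used its 6 libraries, and the difference of effects an interaction over all 12. CPM rest on those deposited counts, with TMM scaling within a set. Ratios of summed counts carry exact 95% intervals, and bounds use a floor of 3 counts over a group. Both cover counting error only, as counts carry no molecular identifiers. Depth ranged from 12585621 to 23378930 counts per library. No library was a repeat of another: chi-square per degree of freedom between replicates was 2.19 to 27.3, so each was counted once.

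Same-numbered libraries of set 1 deviated together (correlations of deviations from group means of 0.229, 0.258 and 0.491 over 15536 genes), so their numbers were taken as pairs and a block was fitted beside the main test. Replicates 1 and 2 also correlated across their numbers (0.241 and 0.218), so which of these libraries pair cannot be told. Replicate 3, whose deposited tables are named in a style of their own, correlated negatively with both. Deviations from a group mean sum to 0 over its 3 libraries. These negative signs and the positive sign of 0.491 thus follow from the positive values among replicates 1 and 2. The titles of the samples were used for I53A replicates 1 and 2, whose tables carry the numbers the other way round.

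The members and gene lists were chosen with earlier results of these data known. Some of these genes are not reported here by name or value and are left out of the plots by gene, while counts and sums over lists include them. The naming rule covered all 39 Hox genes, the genes the labels name, the 3 nearest genes on each side of a cluster, genes inside a cluster that passed the filter, and the called member with the largest change in each direction of 3 companion lists. Hoxa11 and other low members are named as members, whatever their values. Alternatives were other scalings (median of ratios, library totals), no filter or 1 CPM in 3 libraries, DESeq2 version 1.42.0, the block, replicates 1 and 2 of set 1 alone, cluster sums by other rules and leaving out each library. The steps were tested on simulated data.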

Additional observations from a re-analysis of the deposited data

Results flagged for a closer look

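Values are given for 8 Hox genes whose change differed between the mutants by the interaction test, from members with more than 3 counts in each of the 4 groups. Each value is the log2 fold change of I53A against WT less that of libraries labelled QKO against WT, with edgeR's adjusted p. Hoxa13, Hoxb13, Hoxc10 and Hoxd8 were too low for the filtered test in set 2. They entered the interaction test through their I53A counts alone and were thereby selected for a higher I53A level, so their values are a description. The difference was 2.86 for Hoxc13 (adjusted p = 2.69e-06), 3.15 for Hoxc12 (0.000368) and 2.40 for Hoxc4 (0.00107). It was 6.12 for Hoxb13 (0.000136) and 3.10 for Hoxd13 (0.00115). Hoxb13 had 5 counts over the libraries labelled QKO, and its difference was 5.43 without WT replicate 1 of set 2 and 6.75 without WT replicate 1 of set 1. That of Hoxd13 was 3.77 without QKO replicate 2.

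For Hoxc10, Hoxd8 and Hoxa13 the differences were 4.11 (adjusted p = 0.0165), 3.18 (0.0314) and 2.80 (0.0401), and these calls depended on single libraries. Hoxc10 had an adjusted p of 0.115 without WT replicate 2 of set 2. Hoxd8 missed the threshold without 6 of the 12 libraries, 1 at a time, with 0.205 without WT replicate 1 of set 2. Hoxa13 missed it without 9 of them, with 0.436 without WT replicate 3 of set 2. Each has between 5 and 14 counts in the groups other than I53A, so a few reads set its value.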

How the results depend on the processing

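The 18 Hox genes called higher in I53A cells were 18 with median-of-ratios scaling, with library totals, and with DESeq2, 23 with no filter, 13 where 3 libraries had to reach 1 CPM, and 18 to 22 with 1 library left out. The 4 called lower in libraries labelled QKO were 4 with either scaling and with DESeq2, 6 with no filter and 3 to 5 with 1 library left out. With the 1 CPM filter the count was 2, since fewer members were tested. The 15 differences between effects were 15 with either scaling, 16 with DESeq2, 17 with no filter, 12 with the 1 CPM filter and 13 to 18 with 1 library left out. None of these settings gave a call in the other direction. The genes called were not always the same. With 1 library left out, between 16 and 18 of the 18 and between 11 and 15 of the 15 were called again. With no filter, 14 of the 15 differences were called again.

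With the replicate number as a block, 18, 4 and 15 members were called. The numbers of set 1 were taken as pairs, though its replicates 1 and 2 correlated about as much across their numbers as within them. Those of set 2 share a number only, with correlations of 0.0236, -0.00393 and 0.042, and the block there called 9080 genes in all, against 8903 with no block. In set 1 it called 8798 genes, against 5512 with no block.

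Log2 ratios of cluster sums moved beyond the spread with some members left out. Without the member with most counts they were 3.73 in Hoxa, 3.79 in Hoxb and 1.92 in Hoxc for I53A, and -1.07 in Hoxb for libraries labelled QKO. Without members that share exon bases they were 3.02 in Hoxa and 1.03 in Hoxb for I53A, and -1.18 in Hoxa for libraries labelled QKO. With 1 library left out the ranges were 2.66 to 2.85 (Hoxa), 1.35 to 1.63 (Hoxb), 1.34 to 1.51 (Hoxc) and 2.19 to 2.44 (Hoxd) for I53A. For libraries labelled QKO they were -1.87 to -1.61 (Hoxa), -0.34 to -0.18 (Hoxb), -1.87 to -1.69 (Hoxc) and -0.64 to -0.29 (Hoxd). No direction was reversed in these settings.

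For single Hox genes, 252 of 255 alternative values kept their side of the threshold in I53A cells, 66 of 69 in libraries labelled QKO and 341 of 375 for the difference. Most members hold under 100 counts in a library, so counting limits what can be seen of them.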
